A study of Mus musculus with 2 samples.

Results

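Endothelial cells line blood vessels, and 10 genes used to mark them were followed here through an immunoprecipitation of the RNA-binding protein Nanos2 from the embryonic mouse testis. The genes are Pecam1, Cdh5, Kdr, Tek, Tie1, Flt1, Eng, Sox17, Sox18 and Emcn, and the array read them with 21 of its 41174 non-control probes, found by gene symbol or gene ID. The tissue was the male gonad of the MCH mouse strain at embryonic day 14.5, and input and FLAG IP alike carried the transgene Tg-Nanos2 enhancer-3xFLAG-Nanos2-3'UTR. One group held RNA recovered with Anti-FLAG M2-Agarose (FLAG IP) and the other held the starting RNA with no antibody (input), each on 2 one-colour Agilent arrays (n = 2 per group) that the series text calls biological duplicates. The label places the tagged protein under a Nanos2 enhancer, whose own gene is active in male germ cells, and no precipitate from gonads without the transgene was analysed here. RNA that binds the beads without Nanos2 was therefore not measured.

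Vessels grow under a few signalling systems that most of these genes belong to. Vascular endothelial growth factors act on the receptors encoded by Kdr and Flt1, angiopoietins act on the receptor encoded by Tek with Tie1 as its partner, and Eng encodes a co-receptor for ligands of the TGF-beta and BMP families. Sox17 and Sox18 encode transcription factors of endothelial cells, while Cdh5, Pecam1 and Emcn encode proteins of the endothelial surface and cell contacts. In the fetal testis, endothelial cells enter from the neighbouring mesonephros and build the vessels around the cords. Pecam1 and Sox17 are also known outside the endothelium, Pecam1 on blood cells and fetal germ cells and Sox17 in primordial germ cells.

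The arrays differed in brightness, which limits the dim values below. The 75th percentile of the processed signal over the non-control spots was 1026 and 1038 intensity units in the input, but 55.7 for FLAG IP replicate 1 and 608 for the other FLAG IP array. The share of spots well above background was 66.0% and 70.2% in the input, and 42.7% and 65.4% in the FLAG IP. Every level below is log2 of the signal over that percentile of its own array, and a fold change is the FLAG IP mean minus the input mean on that scale. These are relative values, so they do not give the amount of RNA recovered. For the level of a gene in the input, fewer cells of a type and less RNA per cell cannot be told apart. A fold change sets recovered RNA against starting RNA and gives neither.

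Most of the endothelial markers held a lower share of the FLAG IP than of the input, 1 was level, and the Flt1 receptor transcript pointed the other way without passing the test. Of the 10 genes, 6 fell (Tie1, Sox18, Sox17, Emcn, Eng and Cdh5), 0 rose and 4 did not pass in limma at an adjusted p below 0.05. At that threshold 25.4% of the 15269 genes tested were lower and 28.0% were higher. Of the 6, Tie1 and Sox17 entered the test through the input, where they were high, and FLAG IP replicate 1 did not measure them well above background. Among the 4 measured on all arrays, the log2 fold changes of the falls ran from -1.03 for Cdh5 (2.04-fold) to -2.58 for Sox18 (5.99-fold). The median log2 fold change of the 10 genes was -1.27, beside 0.07 for all genes tested. Both FLAG IP arrays lay below both input arrays for 8 of the 10 genes, against 38.2% of all genes tested, and above both for 1, Flt1, against 42.0%. The 8 include Tie1, Sox17 and Tek, which entered the test through the input and were not well above background on FLAG IP replicate 1. Input replicate 1 was alone on its slide and the other 3 arrays shared a slide, within which 4 of the 10 genes were lower in limma (Tie1, Sox18, Sox17 and Emcn), against 10.1% of all genes in that fit, and the median was -1.16. All 10 genes were well above background on both input arrays, so the starting tissue held these transcripts.

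**Figure D1:**
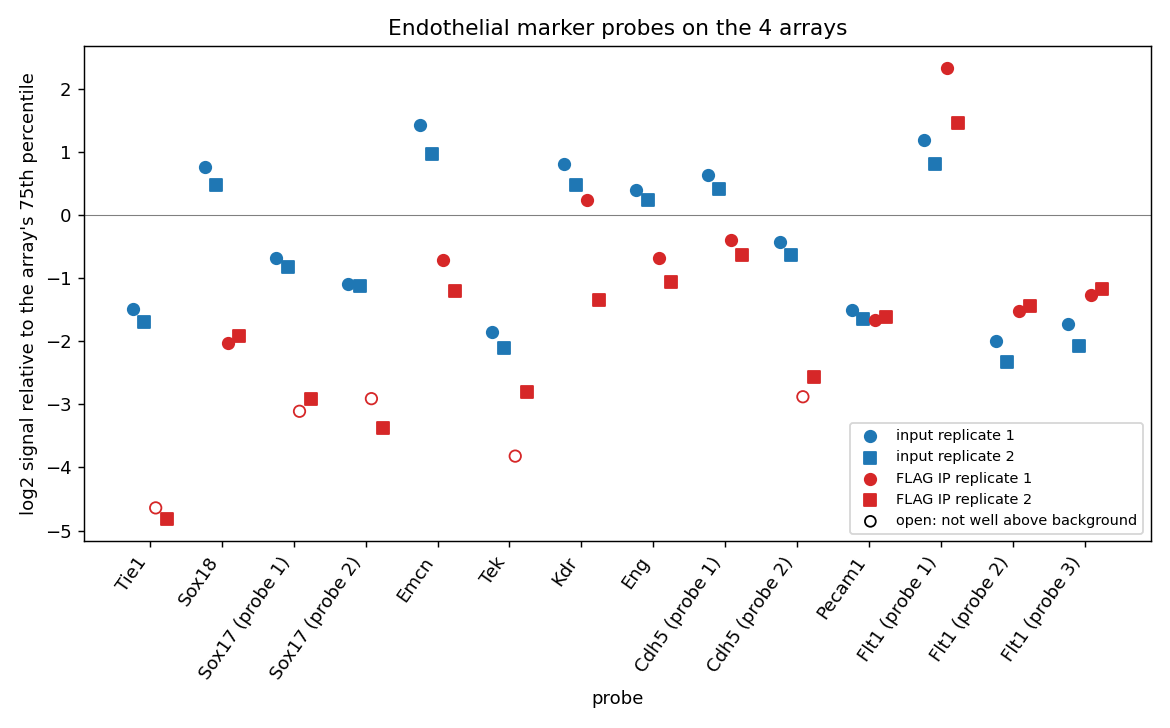
Level of each tested endothelial marker probe (x axis) on the 4 arrays, as log2 signal relative to the 75th percentile of the array (y axis). Blue points are input, red points are FLAG IP, circles are replicate 1, squares are replicate 2, and open points were not well above background. The red points of Tie1, Sox18, Sox17 and Emcn sit far below the blue ones, those of Pecam1 lie among them, and those of Flt1 lie above them.

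The 2 vascular endothelial growth factor receptors stood on opposite sides of the input, and neither passed the test. Kdr encodes the receptor that carries most of the growth signal. Its input values were 0.80 and 0.48, while FLAG IP replicate 1 read 0.23 and the other FLAG IP array read -1.34. The groups did not overlap, but the former lay close to the input and the latter far below it. The fold change was -1.20 ± 0.58 (SE, n = 2 arrays per group; limma adjusted p = 0.156; 95% interval -2.80 to 0.41). The Kdr probe is printed 10 times on the array, and the SD over its spots was 0.206 for FLAG IP replicate 1 and 0.0653 for the other FLAG IP array, against a gap of 1.57 between the means of these arrays. Spot noise was thus much smaller than the gap between the FLAG IP arrays. With 1 FLAG IP array left, Kdr stood at -1.98 without replicate 1 and at -0.41 without replicate 2.

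Flt1 encodes a receptor that binds the growth factor tightly, signals weakly and is also made in a soluble form. Its brightest probe read 1.18 and 0.81 in the input and 2.32 and 1.45 in the FLAG IP. Both FLAG IP arrays were above both input arrays. The fold change was 0.89 ± 0.37 (limma adjusted p = 0.108; 95% interval -0.11 to 1.90). A second Flt1 probe read -2.00 and -2.33 in the input and -1.52 and -1.44 in the FLAG IP, and another read -1.73 and -2.08 against -1.27 and -1.17. With each probe tested on its own, the second stood at 0.68 ± 0.20 (limma adjusted p = 0.0601) and the other at 0.68 ± 0.21 (limma adjusted p = 0.0622). All 3 probes had separate groups in the same direction and none passed the test. They read 1 gene on the same arrays and are not replicates of each other. As the mean of its probes Flt1 passed, at 0.75 (limma adjusted p = 0.0444), where 26.2% of all genes were higher. With 1 FLAG IP array left, its brightest probe stood at 0.46 without replicate 1 and at 1.33 without replicate 2.

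The level of Flt1 against Kdr can be followed within each array. Relative to its mean in the input, this log2 ratio was higher by 1.74 and by 2.44 on the 2 FLAG IP arrays, while the input arrays differed by 0.050. Each of the genes was lower on the second FLAG IP array than on its partner. This pair was compared after its values were seen, and the difference is a description with no test.

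Tie1, the partner gene in the angiopoietin receptor pair, was called lower, but its size is uncertain. It read -1.49 and -1.70 in the input and -4.64 and -4.81 in the FLAG IP. Only 1 of the 2 FLAG IP arrays measured it well above background, and it passed the filter through the input alone. With the dim value taken as it stands, the fold change was -3.13 ± 0.18 (limma adjusted p = 0.0038). On FLAG IP replicate 1 it read 2.24 intensity units, while the 7 marker probes that were not tested read 1.88 to 2.80 there. Without that array the fold change was -3.22. With each dim value raised to the lowest level that counted as well above background on its array, it was -2.19 and the call was lost (limma adjusted p = 0.0948). Tie1 was the most negative of the 10 genes with its dim value as read, but Sox18 lay below it with the floor (-2.58) and with normexp background correction (-1.95 against -0.64).

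Tek, which encodes the angiopoietin receptor itself, read -1.85 and -2.11 in the input and -3.82 and -2.80 in the FLAG IP. The groups did not overlap, and FLAG IP replicate 1, the lower of the FLAG IP arrays, was not well above background. Its fold change of -1.33 ± 0.40 missed the threshold (limma adjusted p = 0.0516; 95% interval before adjustment -2.43 to -0.24). With 1 FLAG IP array left, Tek stood at -0.83 without replicate 1 and at -1.84 without replicate 2. The second value rests on the dim reading of FLAG IP replicate 1. With normexp background correction Tek turned to 0.24, against a median of 0.39 over all genes under that correction.

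Eng, the co-receptor gene, read 0.39 and 0.23 in the input and -0.69 and -1.07 in the FLAG IP, and all 4 arrays measured it well above background. It fell by 1.19 ± 0.21 (2.28-fold; limma adjusted p = 0.0139). The call was lost when either input array was left out, with a limma adjusted p of 0.156 without input replicate 1 and 0.108 without input replicate 2. The fold change stayed at -1.11 and -1.27 in those fits.

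Both SOX genes fell. Sox18, which encodes a factor of blood and lymphatic vessel development, read 0.76 and 0.47 in the input and -2.03 and -1.91 in the FLAG IP. It fell by 2.58 ± 0.19 (5.99-fold; limma adjusted p = 0.0038) with all 4 arrays well above background. Sox17, which encodes a factor of arterial endothelium, read -0.69 and -0.83 in the input and -3.11 and -2.91 in the FLAG IP, where FLAG IP replicate 1 was not well above background. Sox17 also passed the filter through the input alone, and its fold change was -2.25 ± 0.18 with the dim value as read (limma adjusted p = 0.0038) and -2.08 with the floor (limma adjusted p = 0.0070). A second Sox17 probe read -1.10 and -1.12 against -2.91 and -3.38 with the same limit on FLAG IP replicate 1, and its own fold change was -2.04 ± 0.23 (limma adjusted p = 0.0083). The gap between the fold changes of Sox18 and Sox17 was 0.33, within 2 combined SE.

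The surface and junction genes spread widely. Emcn, the gene of a sialomucin of veins and capillaries, read 1.42 and 0.96 in the input and -0.71 and -1.20 in the FLAG IP, all well above background. It fell by 2.14 ± 0.28 (4.42-fold; limma adjusted p = 0.0070). Cdh5, the gene of VE-cadherin, which joins endothelial cells at their contacts, read 0.63 and 0.41 in the input and -0.39 and -0.64 in the FLAG IP with its brighter probe. It fell by 1.03 ± 0.19 (2.04-fold; limma adjusted p = 0.0155), a call that was lost without input replicate 1 (limma adjusted p = 0.224) or input replicate 2 (limma adjusted p = 0.137). The dimmer Cdh5 probe read -0.43 and -0.64 against -2.88 and -2.57, but passed the filter through the input alone, with FLAG IP replicate 1 not well above background. Its own fold change of -2.19 ± 0.21 (limma adjusted p = 0.0069) therefore rests partly on a dim value, and its size was not set against that of the brighter probe.

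Pecam1, the gene of an adhesion molecule used to stain vessels, was level between the groups. Its probe, also printed 10 times, read -1.50 and -1.65 in the input and -1.67 and -1.62 in the FLAG IP. The FLAG IP arrays lay among or next to the input arrays. The fold change was -0.07 ± 0.16 (limma adjusted p = 0.734; 95% interval -0.52 to 0.38). That interval lies above the estimate of each of the 6 genes that fell.

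**Figure D2:**
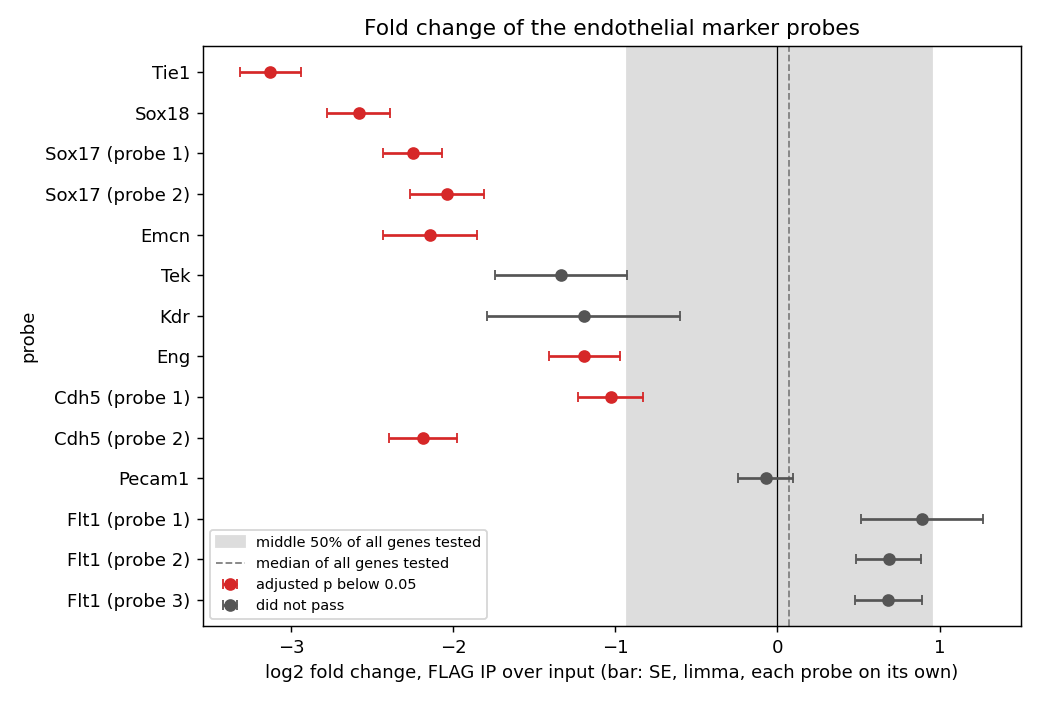
Log2 fold change of FLAG IP over input (x axis) for each tested probe (y axis), with the SE from limma as the bar. Red points passed an adjusted p below 0.05 over all probes, the shaded band spans the middle 50% of all genes tested (-0.93 to 0.96), and the dashed line is their median of 0.07. Tie1 lies farthest left at -3.13 with its dim value as read, and the 3 Flt1 probes are the ones to the right of 0.

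In order from the most negative fold change, the genes ran Tie1, Sox18, Sox17, Emcn, Tek, Kdr, Eng, Cdh5, Pecam1 and Flt1. Leaving Tie1 aside, between neighbours in this order the gap was more than 2 combined SE from Cdh5 to Pecam1 (0.96) and from Pecam1 to Flt1 (0.97). From Sox18 through Cdh5, no gene was separated from the next by that much. The place of Tie1 is not settled, since the order of Tie1 and Sox18 turned with the floor and with normexp. By probe, 14 of the 21 were tested, of which 8 fell, 0 rose and 6 did not pass in limma (4 of the 8 were measured well above background on 1 FLAG IP array), against 22.4% lower and 23.2% higher over the 26534 probes tested. Both FLAG IP arrays lay below both input arrays for 10 of the 14, against 37.4% of all probes tested. Among the 10, those of Tie1, Tek and Sox17 and the dimmer Cdh5 probe passed the filter through the input alone. The 7 probes not tested, of Pecam1, Kdr, Tek, Flt1 and Sox17, did not reach the filter. Of these, 6 were not well above background on any array, and a second Tek probe reached it on 1 input array alone. With either input array left out, 0 of all 26534 probes passed in limma after adjustment, the 14 marker probes among them (7462 and 7715 of all probes had an unadjusted p below 0.05).

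Promoter sequence was matched by symbol for 6 of the 10 genes in the RefSeq table of build GRCm38.p6. Words bound by ETS factors, a family known to act in endothelial genes, were searched on both strands in the 250 bases before each start site. The word AGGAAG was in 4 of the 6 promoters, those of Eng, Emcn, Tie1 and Flt1, and in 29.5% of the 32851 promoters of the table. Overlapping longer words gave fewer matches, with ACAGGAA in 2 of 6 (7.20% of all promoters), AGGAAGT in 2 of 6 (7.69%), CAGGAAG in 1 of 6 (10.8%) and CCGGAAG in 0 of 6 (6.91%). The windows below are shown because these genes include Eng and Emcn, which fell, and Flt1, which did not. Each runs 5′ to 3′ on the strand of the gene, with AGGAAG or its reverse complement CTTCCT in capitals. The word had 2 matches each for Eng, Emcn and Flt1 and 1 for Tie1, and 1 window per gene is shown.
Tie1, chr4:118490051-118490080, minus strand: ggaagccactggCTTCCTccctttcctgtc
Emcn, chr3:137340973-137341002, plus strand: agtggctgccaaAGGAAGagagaggaaaaa
Eng, chr2:32646531-32646560, plus strand: aagcctgtggcaCTTCCTctactcgcctgg
Flt1, chr5:147726047-147726076, minus strand: aggtgccggggtAGGAAGtgggctggggaa
The word thus stood before genes that fell and before Flt1, which did not. It was absent from the promoters of Kdr and Tek, which did not pass the test either. No link between the word and the falls was tested.

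Other genes of vessel growth were read from lists of ligands, receptors, transcription factors and surface genes. Of 86 such genes 78 were tested, and 39 fell, 13 rose while 26 missed the threshold. The median of the 78 was -1.09, and over all genes tested 25.4% were lower and 28.0% higher. Of the 39 that fell, 8 were measured well above background on 1 FLAG IP array. With input replicate 1 left out 18 were lower and 1 higher, where 10.1% and 9.39% of all genes were, and with input replicate 2 left out 22 and 3, where 11.3% and 10.1% of all genes were. Dropping FLAG IP replicate 1 gave 49 and 22 (40.7% and 40.6% of all genes), and dropping its partner 47 and 22 (37.4% and 44.8%). The counts thus moved with those of the whole array. Many of these genes are also active in other cells of the gonad.

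Of 15 receptor genes tested, 11 fell and 2 rose (25.4% and 28.0% of all genes), with a median of -1.36. Robo4, a guidance receptor of endothelium, fell by 2.36 ± 0.27, Nrp1, a co-receptor for vascular growth factors measured on 1 FLAG IP array, fell by 2.29 ± 0.23, and Ramp2, the partner of the adrenomedullin receptor, fell by 2.28 ± 0.20. Ptprb, the phosphatase that opposes the angiopoietin receptor, rose by 1.62 ± 0.20. Flt4, the lymphatic receptor of the same family as Kdr and Flt1, rose by 0.94 ± 0.22 (limma adjusted p = 0.0286), and FLAG IP replicate 1 did not measure it well above background. Of 16 ligands tested, 3 fell, 3 rose and 10 missed the threshold. Their median was 0.35, and neither count was above the shares of all genes given earlier. Vegfb, a ligand of the Flt1 receptor, fell by 3.00 ± 0.36, Cxcl12, a chemokine, fell by 1.97 ± 0.21 and Efnb2, an arterial ephrin, fell by 0.89 ± 0.20. Apln, the ligand of the apelin receptor, rose by 2.41 ± 0.16, the guidance factor gene Sema3e, measured well above background on 1 FLAG IP array, by 1.22 ± 0.31 and the Notch ligand gene Jag2 by 1.12 ± 0.20.

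Among 21 endothelial transcription factor genes, 9 fell and 6 rose, with a median of -0.30. Over all genes tested 25.4% were lower and 28.0% higher, so the rises were near the share of the whole array. Klf2, a factor that responds to blood flow, fell by 2.36 ± 0.37, Lyl1, a factor of blood and vessel cells, fell by 2.31 ± 0.27 and Elk3, an ETS factor, fell by 1.83 ± 0.21. Hey1, a target of Notch signalling, rose by 1.69 ± 0.19, Klf4 by 1.51 ± 0.17 and Etv2, an ETS factor of early endothelium also measured on 1 FLAG IP array, by 1.30 ± 0.26. Of 26 junction, surface and matrix genes, 16 fell and 2 rose (25.4% and 28.0% of all genes), with a median of -1.62. Jam2, a junction gene, fell by 3.30 ± 0.34, Cav1, the gene of the caveolar coat protein, fell by 3.11 ± 0.18 and Podxl, a sialomucin gene, fell by 3.02 ± 0.41, with Jam2 and Podxl measured on 1 FLAG IP array each. Selp, the gene of P-selectin, rose by 1.62 ± 0.21 and Stab2, a scavenger receptor gene of sinusoidal endothelium, by 1.31 ± 0.19.

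**Figure D3:**
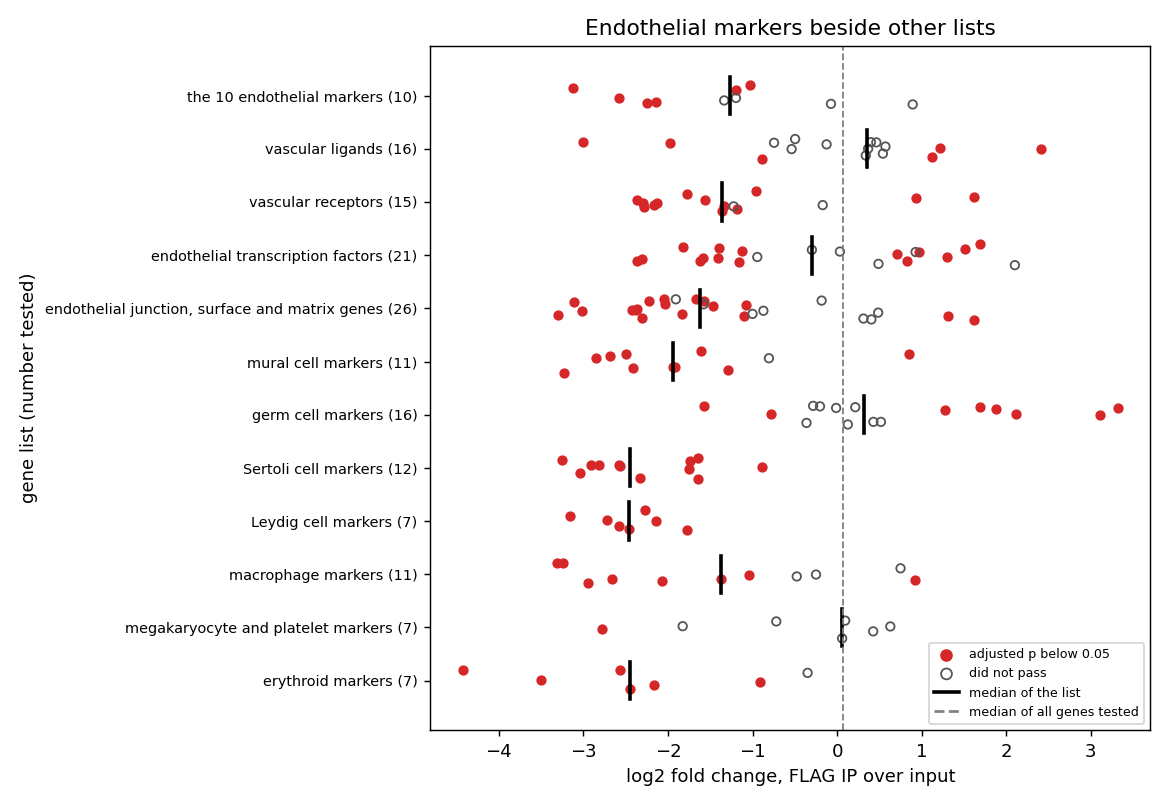
Log2 fold change of FLAG IP over input (x axis) for the genes tested in each list (y axis, with the number tested), red where the adjusted p was below 0.05. Black bars are list medians and the dashed line is the median of all genes tested, 0.07. The endothelial markers have a median of -1.27, between the germ cell markers at 0.32 and the Sertoli and Leydig cell markers at -2.45 and -2.46.

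Markers of other cell types moved in the same arrays, where 25.4% of all genes tested were lower and 28.0% higher. The summed level of the 10 endothelial markers, in units of the 75th percentile, was 12.8 and 10.4 in the input and 8.95 and 5.58 in the FLAG IP. Flt1, which pointed the other way, was the largest part of both FLAG IP sums, with log2 levels of 2.32 and 1.45. For 11 mural cell markers, of the cells that wrap vessels, the sum was 89.8 and 85.0 against 22.8 and 16.8, with 9 lower and 1 higher. Of the 9, Rgs5 was measured well above background on 1 FLAG IP array. All 12 Sertoli cell markers and all 7 tested Leydig cell markers fell, with sums of 149 and 130 against 21.9 and 23.6 and of 140 and 128 against 20.6 and 19.5. Among them Cbln4 was measured well above background on 1 FLAG IP array and Lhcgr on neither, so both passed the filter through the input alone. Of 11 macrophage markers 7 fell and 1 rose (6.22 and 6.01 against 2.17 and 1.72), with 6 of those 7 measured well above background on 1 FLAG IP array, and of 7 erythroid markers 6 fell and 0 rose in limma (175 and 164 against 19.3 and 15.3). Of 7 megakaryocyte and platelet markers, which share Pecam1 with the endothelium, 1 fell, Pf4, and 0 rose in limma (1.17 and 1.15 against 1.28 and 0.677). Pf4 and the erythroid genes Hba-x and Hbb-bh1 were likewise measured well above background on 1 FLAG IP array, and passed the filter through the input alone. Of 16 germ cell markers 2 fell, 6 rose and 8 did not pass, with sums of 106 and 111 against 198 and 215. Of the 2 that fell, Rhox9 was measured well above background on 1 FLAG IP array. Nanos2 itself rose by 1.88 ± 0.20 (limma adjusted p = 0.0048). The part of these cell types in the values of Pecam1, Flt1 or the other markers was not tested.

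The genes whose 4 values lay closest to the median pattern of the endothelial markers were Fam149a, H1f3, Mvb12b, Cdc42bpg and Arrb1. Each gene was set to its input mean, and the distances over the 4 arrays were 0.050 to 0.102 on the log2 scale. Their fold changes were -1.58 to -1.49. With 4 arrays in 2 groups, many genes share such a pattern.

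The size of the falls depended on the spot signal and background correction used. Normexp background correction was run on the median spot signal, not on the processed signal, and adds an offset of 50 units. The 75th percentile of the processed signal of FLAG IP replicate 1 was 55.7. With normexp, 2 of the 10 genes passed as lower, Sox18 and Emcn, where 9.14% of all genes did. Tie1 then stood at -0.64 (limma adjusted p = 0.536) and Sox17 at -0.67 (limma adjusted p = 0.401), while Eng stood at -0.78 (limma adjusted p = 0.223) and Cdh5 at -0.56 (limma adjusted p = 0.300). In the authors' deposited table, the quotients of the FLAG IP and input ratios for the probes that stand for these genes were 0.105 for Tie1, 0.154 for Sox18, 0.194 for Sox17, 0.209 for Emcn, 0.879 for Pecam1 and 1.71 for Flt1. In the authors' deposited table Eng and Kdr were level at 0.404 each, and the other genes kept the order given above.

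**Figure D4:**
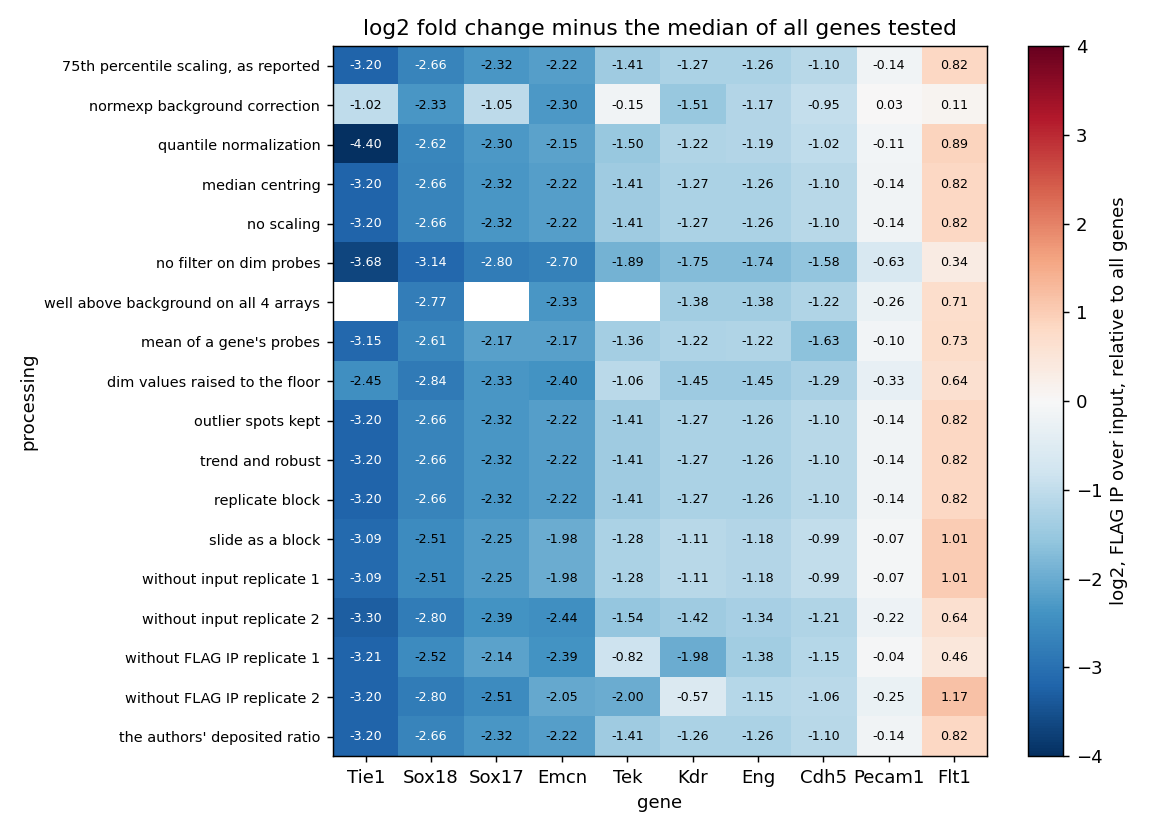
Log2 fold change of FLAG IP over input minus the median of all genes tested, for each endothelial marker (x axis) under each way of processing the arrays (y axis). Blue cells lie below all genes, red cells above, and empty cells had no probe that passed the filter. Tie1 is at -3.20 as reported and -1.02 with normexp, and Flt1 is above 0 in every line, at 0.11 to 1.17.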

How the data were processed

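The authors' deposited scanner files give each spot a background-corrected intensity on a linear scale; the submitters' processing notes name Agilent Feature Extraction 9.5. The deposited series table gives each probe a ratio per group, with both arrays pooled, per the file headers. Labelling used 0.20 µg of RNA, as the labels' protocols state. From the intensities, log2 values minus the array's 75th percentile were computed, outlier spots were dropped and spots of a probe averaged. A probe was tested if well above background on both arrays of a group. The brightest passing probe stood for a gene. Groups were compared with limma 3.58.1 in R 4.3.3, two-sided, with Benjamini-Hochberg adjustment over all genes (or probes) and a threshold of 0.05. No spot was saturated, and 0 member values were missing. The steps were tested on simulated data. The number of arrays, 4, limits precision, and p-values measure the spread between these arrays. The correlation of deviations between input replicate 1 and FLAG IP replicate 1 was 0.050. The median SD was 0.304 between the FLAG IP arrays and 0.060 between the input arrays. With such unequal spread and so few arrays, that correlation cannot decide whether replicate numbers pair the samples. Of 41174 probes, 31004 were named by gene ID through RefSeq GRCm38.p6, and 8598 had no name. Named genes were all members, Nanos2 and, per other vascular list, the 3 most negative and 3 most positive passing genes. The 5 closest patterns were taken among genes with a standard symbol (clone and predicted-gene names left out). From the cell type lists, some genes not well above background on both FLAG IP arrays were also named. The members and lists were chosen with earlier results of these data known. Unused per-sample columns of the series table numbered 0. Alternatives were other background, scaling, filter, probe, variance and block choices, and each array left out. Raising dim values to a floor was chosen after seeing the data.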

Additional observations from a re-analysis of the deposited data

How the results depend on the processing

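The main count was 6 of 10 endothelial markers lower and 0 higher in limma, where 25.4% and 28.0% of all genes were. The 14 probes gave 8 lower and 0 higher, where 22.4% and 23.2% of all probes were. With normexp background correction 2 genes were lower (9.14% of all genes), the median fold change was -0.65 (0.39 over all genes), 0 of all 26534 probes passed in limma, marker probes included (8257 at an unadjusted p below 0.05), and 14 other vascular genes were lower and 2 higher. Pecam1 then stood at 0.42 and Tek at 0.24. With no scaling the median over all genes was -2.41, that of the markers was -3.75, Flt1 stood at -1.59, and 0 of all 15269 genes and 0 of all probes passed in limma, so 0 markers and 0 other vascular genes did (4047 genes at an unadjusted p below 0.05). With no filter on dim probes 0 of all 41174 probes passed in limma, marker probes included (13532 at an unadjusted p below 0.05). With only probes well above background on all 4 arrays, 4 marker probes were lower and 2, of Flt1, higher, where 26.7% and 35.3% of all probes were. Tie1, Sox17 and Tek then gave no value. With the mean of a gene's probes 1 marker was higher (26.2% of all genes) and the median was -1.47. With the replicate block 1 marker was higher (27.0% of all genes) and 8 lower (25.4%). Whether the replicate numbers pair the samples was not settled. Slide as a block equals leaving out input replicate 1, the lone array of its slide: 4 markers were lower (10.1% of all genes), 0 of all probes passed in limma, marker probes included (7462 at an unadjusted p below 0.05), 18 other vascular genes were lower and 1 higher, and Pecam1 stood at 0.0022. Over the fits that left out 1 array, with a lone array assumed to vary like the other group, markers lower ran from 4 to 8, markers higher from 0 to 1, the median from -1.68 to -1.16, marker probes lower from 0 to 10 and higher from 0 to 3, other vascular genes lower from 18 to 49 and higher from 1 to 22, and Pecam1 from -0.15 to 0.0022. Apart from these, median centring, quantile normalization, outlier spots kept and the floor for dim values left 6 markers lower. Between 21.5% and 28.1% of all genes were lower in those fits. The floor had Tek (-0.81) in place of Tie1 (-2.19). Beyond the design, signal over background limits Tie1, Tek, Sox17 and the dimmer Cdh5 probe on FLAG IP replicate 1.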
